A study of Mus musculus with 21 samples.

Results

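The proteasome is the protease that degrades most ubiquitinated proteins of the cell, and the genes described here encode its subunits and the proteins that activate or assemble it. Members were all genes of the expression table whose GENCODE mouse symbol starts with Psma, Psmb, Psmc, Psmd, Psme, Psmf or Psmg. Of 54 such symbols in the annotation, 34 had values, among 5544 genes in the table. How the genes of the table were selected is not given in the sources used here. Shares of all genes are therefore shares of this table. The 34 members comprise 14 core particle genes, 6 ATPases, 3 other base subunits, 8 lid subunits, 2 activators and 1 assembly factor. The remaining 20 symbols were not analysed here: Psma8, Psmb8, Psmb9, Psmb10, Psmb11, Psmd9, Psmd10, Psme1, Psme2, Psme2b, Psmf1, Psmg1, Psmg2, Psmg3, Psmg4, 4 pseudogenes (Psmb5-ps, Psmb6-ps, Psmb6-ps2 and Psmb7-ps2) and Psmc3ip, which encodes a meiotic recombination cofactor. The immunoproteasome subunits and the paired PA28 alpha and beta activator genes are therefore outside the account.

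Cortical RNA was sequenced from male C57BL/6 mice aged 12 weeks, at 24 h after the last of a series of head impacts given over several days (high-frequency head impact, HF-HI) or of the matching sham procedure. The sham procedure included the anesthesia, without any blow to the head. There were 10 sham and 11 HF-HI libraries, one per mouse, made from whole cortical homogenate, so fewer cells of a type and less RNA per cell cannot be told apart. No genetic change was introduced in either group, and the only comparison is HF-HI against sham.

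In the 26S proteasome, a barrel of stacked alpha and beta rings encloses the proteolytic sites, and a regulatory particle caps its ends. The regulatory particle has a base, which holds a ring of ATPases that unfold substrates and thread them into the barrel, and a lid, which removes ubiquitin from them. In neurons the complex takes part in the turnover of synaptic proteins and is recruited to active synapses.

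Promoters are shown for 4 members whose differences are described below, the ATPase gene Psmc5 and the lid gene Psmd12, which were higher in HF-HI, and the genes of the catalytic beta subunits Psmb5 and Psmb6, which were lower. They are RefSeq sequences of build GRCm38.p6, the 250 bases before the start that RefSeq annotates, written 5′ to 3′ on the strand of the gene. That start lies downstream of the GENCODE start of Psmc5, Psmd12 and Psmb5, so the last bases of these windows fall within the gene as GENCODE gives it. Capitals mark matches on either strand to TGACNNNGC, the core letters of the antioxidant response element, to which the transcription factors Nfe2l1 and Nfe2l2 bind with small Maf partners.
Psmc5 promoter, chr11:106255935-106256184, plus strand: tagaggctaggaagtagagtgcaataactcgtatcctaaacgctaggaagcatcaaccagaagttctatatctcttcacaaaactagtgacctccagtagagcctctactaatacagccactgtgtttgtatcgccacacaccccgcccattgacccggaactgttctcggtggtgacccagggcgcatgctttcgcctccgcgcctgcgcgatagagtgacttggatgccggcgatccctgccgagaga
Psmd12 promoter, chr11:107479278-107479527, plus strand: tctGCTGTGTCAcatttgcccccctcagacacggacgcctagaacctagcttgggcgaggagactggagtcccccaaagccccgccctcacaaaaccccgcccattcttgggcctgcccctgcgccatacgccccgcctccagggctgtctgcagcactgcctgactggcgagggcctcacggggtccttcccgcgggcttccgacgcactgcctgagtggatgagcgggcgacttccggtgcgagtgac
Psmb5 promoter, chr14:54617996-54618245, minus strand: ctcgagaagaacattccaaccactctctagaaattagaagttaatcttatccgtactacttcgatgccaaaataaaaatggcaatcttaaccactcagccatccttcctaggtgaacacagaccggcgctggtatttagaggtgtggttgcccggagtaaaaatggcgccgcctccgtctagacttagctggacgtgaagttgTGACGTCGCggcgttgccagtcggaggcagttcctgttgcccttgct
Psmb6 promoter, chr11:70525107-70525356, plus strand: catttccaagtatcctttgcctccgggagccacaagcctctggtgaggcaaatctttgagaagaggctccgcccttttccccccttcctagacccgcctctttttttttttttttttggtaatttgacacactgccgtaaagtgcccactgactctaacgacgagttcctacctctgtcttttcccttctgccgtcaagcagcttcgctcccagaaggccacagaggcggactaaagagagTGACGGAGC
With the 50 bases after the start included, these letters were found in 5 of the 28 members with a promoter entry (17.9%), Psmb5, Psmb6, Psmc6, Psmd12 and Psme4, against 12.4% of 32851 promoters. Of these 5 genes 4 were lower and 1, Psmd12, was higher in HF-HI. CCAAT, the letters bound by the factor NF-Y, was found on either strand in 11 of the 28 (39.3%), against 37.4% of all promoters. For both motifs the member share is per gene, with 30 promoters for the 28 members. The share over all is per promoter and is not limited to genes of the expression table, so the shares are not of like units. The letters alone mark no binding site. Psmb1, Psmb2, Psmb7, Psmc3, Psmd3 and Psmd7 had no entry. The Psmc5 window held neither motif.

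Values are variance-stabilized and lie on a log2 scale, and a difference is HF-HI minus sham with its standard error (SE). Genes were called at an adjusted p under 0.05 (limma, two-sided, Benjamini-Hochberg over all 5544 genes). Of the 34 members 28 were called, 22 lower and 6 higher in HF-HI, and 6 were not called. In the table as a whole, 66.3% of genes were called, 33.6% lower and 32.6% higher, and among members 64.7% were lower and 17.6% higher. Whether these shares differ was not tested. With libraries centred on their medians the table held 1448 genes higher and 2376 lower, against 1810 and 1864 in the deposited values, and the members 6 and 23. The median difference over members was -0.17, against -0.0086 over all genes. In 7 members the libraries of the groups did not overlap, 6 lower and 1 higher, against 13.5% of all genes (4.76% lower and 8.71% higher).

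**Figure D1:**
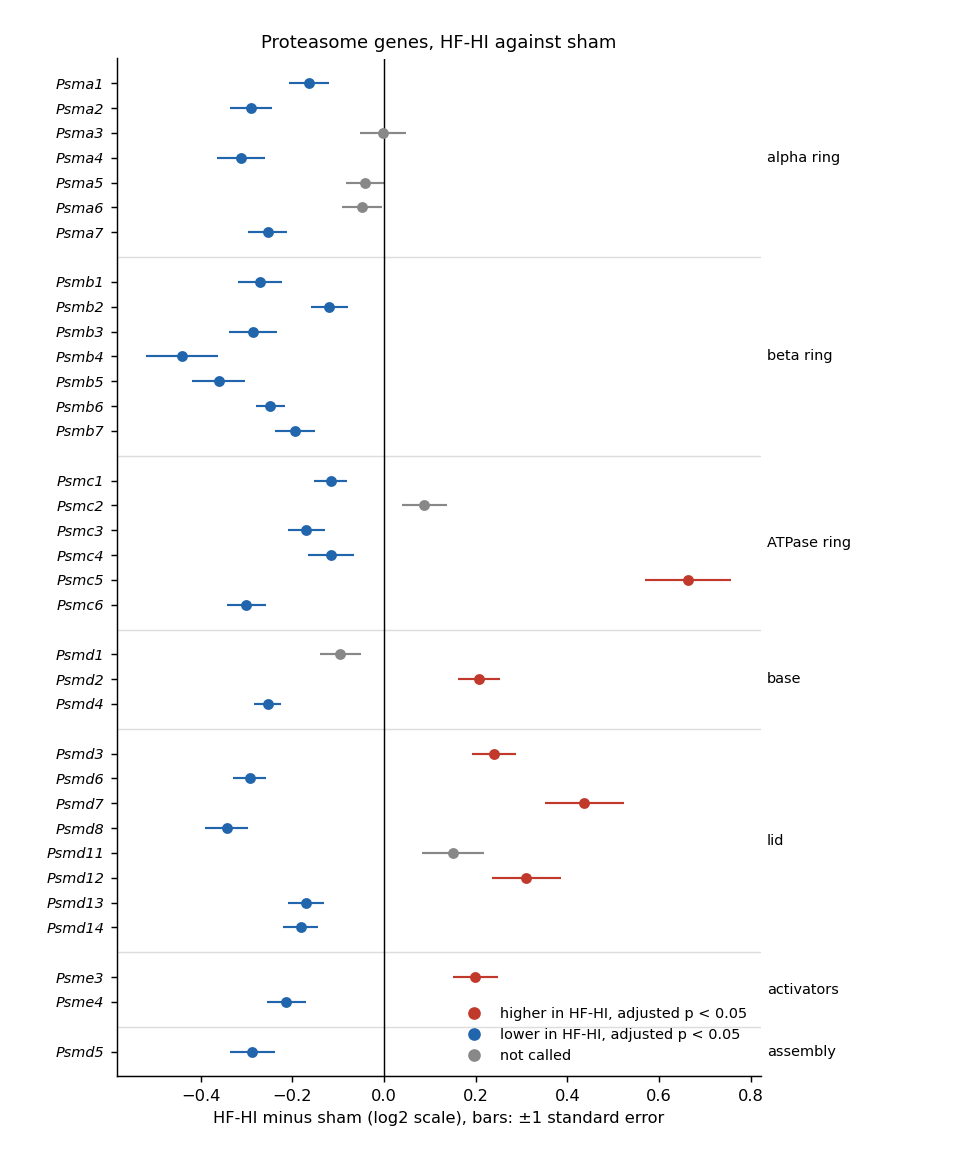
Difference between HF-HI and sham on the log2 scale for each of the 34 proteasome genes, grouped by place in the complex, with bars of 1 standard error and colours for the call. All 7 beta ring genes lie below 0, while Psmc5 (0.66), Psmd7 (0.44) and Psmd12 (0.31) stand apart on the other side.

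All 14 core particle genes had a negative difference in the deposited values and with either scaling alternative, though Psma3, at -0.0030, turned positive in several other settings. Of the 14, 11 were called lower and none higher, with a median difference of -0.25. Among the 17 genes of the regulatory particle, 9 were lower, 5 higher and 3 not called, with differences from -0.34 to 0.66. The higher genes were the ATPase gene Psmc5, the base scaffold gene Psmd2 and the lid genes Psmd3, Psmd7 and Psmd12, and the sixth was the activator gene Psme3. The plot of differences by subunit group shows these genes beside their partners in the same ring or lid.

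The beta ring carries the proteolytic sites, and all 7 of its genes were lower, by 0.12 to 0.44 (6 of 7 with the GC trend of each library removed). Psmb5 encodes the subunit with chymotrypsin-like activity, the usual target of proteasome inhibitors (ENSMUSG00000022193, GRCm38 chr14:54614119-54618022, 3 exons). Its sham libraries ran from 9.17 to 9.45 with a median of 9.28, and its HF-HI libraries from 8.57 to 9.12 with a median of 8.98. Every HF-HI library was below every sham library. The difference was -0.36 (SE 0.058, adjusted p = 1.11e-05), from 9.29 ± 0.087 (SD, n = 10) to 8.93 ± 0.17 (SD, n = 11). The caspase-like subunit gene Psmb6 behaved in the same way over a narrow range, with sham libraries from 9.37 to 9.58 (median 9.46) and HF-HI libraries from 9.08 to 9.29 (median 9.23). Its difference of -0.25 (SE 0.032, adjusted p = 7.72e-07) was reached without overlap between the groups. Psmb7, which encodes the trypsin-like subunit, had a difference of -0.19 (adjusted p = 5.00e-04), with 8 of 11 HF-HI libraries below all sham libraries.

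The 4 beta subunits without a proteolytic site were lower as well. Psmb4 had the largest negative difference of any member. Its sham libraries ran from 9.62 to 10.19 (median 9.89) and its HF-HI libraries from 9.12 to 9.67 (median 9.50), and the groups overlapped, with 8 HF-HI libraries below all sham libraries. The difference was -0.44 (SE 0.078, adjusted p = 3.88e-05), from 9.89 ± 0.20 to 9.45 ± 0.19 (SD). Sham libraries 1, 2 and 3 were the highest in sham, and without them the difference was -0.35 (adjusted p = 8.41e-04). Psmb3 was lower by 0.29 (8.83 ± 0.15 to 8.54 ± 0.10, SE 0.053, adjusted p = 5.63e-05). Psmb1 was lower by 0.27 (9.92 ± 0.13 to 9.65 ± 0.092, SE 0.047, adjusted p = 3.04e-05). Psmb2 had the smallest difference of the ring, -0.12 (adjusted p = 0.0116).

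Of the 7 alpha ring genes, whose products form the gate of the barrel, 4 were lower and 3 were not called. Psma4 fell by 0.31, from 9.48 ± 0.13 to 9.17 ± 0.12 (SD, SE 0.052, adjusted p = 2.05e-05). Its sham libraries spanned 9.27 to 9.64 (median 9.50) and its HF-HI libraries 8.96 to 9.40 (median 9.16). HF-HI library 9, the highest of its group, was the only one inside the sham range. Psma2 fell by 0.29 (9.55 ± 0.12 to 9.26 ± 0.093, SE 0.047, adjusted p = 1.15e-05, and by 0.16 with the GC trend of each library removed), Psma7 fell by 0.25 (9.51 ± 0.11 to 9.26 ± 0.084, SE 0.043, adjusted p = 2.21e-05) and Psma1 fell by 0.16 (9.35 ± 0.12 to 9.19 ± 0.079, SE 0.043, adjusted p = 0.00207). The other alpha ring genes had differences of -0.0030 for Psma3, -0.042 for Psma5 and -0.048 for Psma6 (adjusted p = 0.960, 0.379 and 0.344).

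In the ATPase ring, where each of the 6 subunits is present once, Psmc5 stood apart. It encodes Rpt6, the ATPase that CaMKII phosphorylates in neurons (ENSMUSG00000020708, GRCm38 chr11:106256154-106263120, 11 exons), and had the largest difference of any member in either direction. Sham libraries ran from 8.61 to 9.45 (median 9.21) and HF-HI libraries from 9.59 to 10.12 (median 9.77). All 11 HF-HI libraries were above all 10 sham libraries. The mean rose from 9.13 ± 0.30 to 9.79 ± 0.14 (SD), a difference of 0.66 (SE 0.094, adjusted p = 2.22e-06), which is 1.58 times the sham level. Libraries 1, 2 and 3 were the lowest in sham (mean 8.73, against 9.30 for the others). Without them the difference was 0.49 (adjusted p = 2.49e-06).

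Of the other ATPase genes 4 were lower and 1 was not called. Psmc6 (Rpt4) was lower by 0.30, from 9.77 ± 0.10 to 9.47 ± 0.096 (SD, SE 0.043, adjusted p = 2.68e-06), with 10 of 11 HF-HI libraries below all sham libraries, but by 0.15 with the GC trend of each library removed. Psmc3 (Rpt5) was lower by 0.17 (9.78 ± 0.070 to 9.61 ± 0.11, SE 0.040, adjusted p = 8.72e-04) and Psmc1 (Rpt2) by 0.12 (9.57 ± 0.059 to 9.46 ± 0.093, SE 0.036, adjusted p = 0.00685). Psmc4 (Rpt3) was called at -0.12 (adjusted p = 0.0463), a call that held in 9 of the 21 fits with 1 library left out. Psmc2 (Rpt1) was not called, with a difference of 0.088 (adjusted p = 0.112), and was called higher without HF-HI library 9 (0.11, adjusted p = 0.0302).

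The 3 remaining base genes split. Psmd4 encodes Rpn10, a receptor for ubiquitin chains, and showed the smallest adjusted p of any member. Sham libraries lay between 9.56 and 9.73 (median 9.64) and HF-HI libraries between 9.28 and 9.49 (median 9.40), without overlap. The difference was -0.25 (9.64 ± 0.048 to 9.39 ± 0.065, SE 0.029, adjusted p = 1.43e-07). Psmd2 encodes the scaffold Rpn1, which docks shuttle proteins, and was higher by 0.21 (10.67 ± 0.094 to 10.88 ± 0.12, SE 0.046, adjusted p = 4.10e-04), with 8 HF-HI libraries above all sham libraries. Without sham libraries 1, 2 and 3, the lowest in sham, its difference was 0.16 (adjusted p = 0.00670). Psmd1, the gene of the other scaffold, Rpn2, was not called (-0.095, adjusted p = 0.0676).

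**Figure D2:**
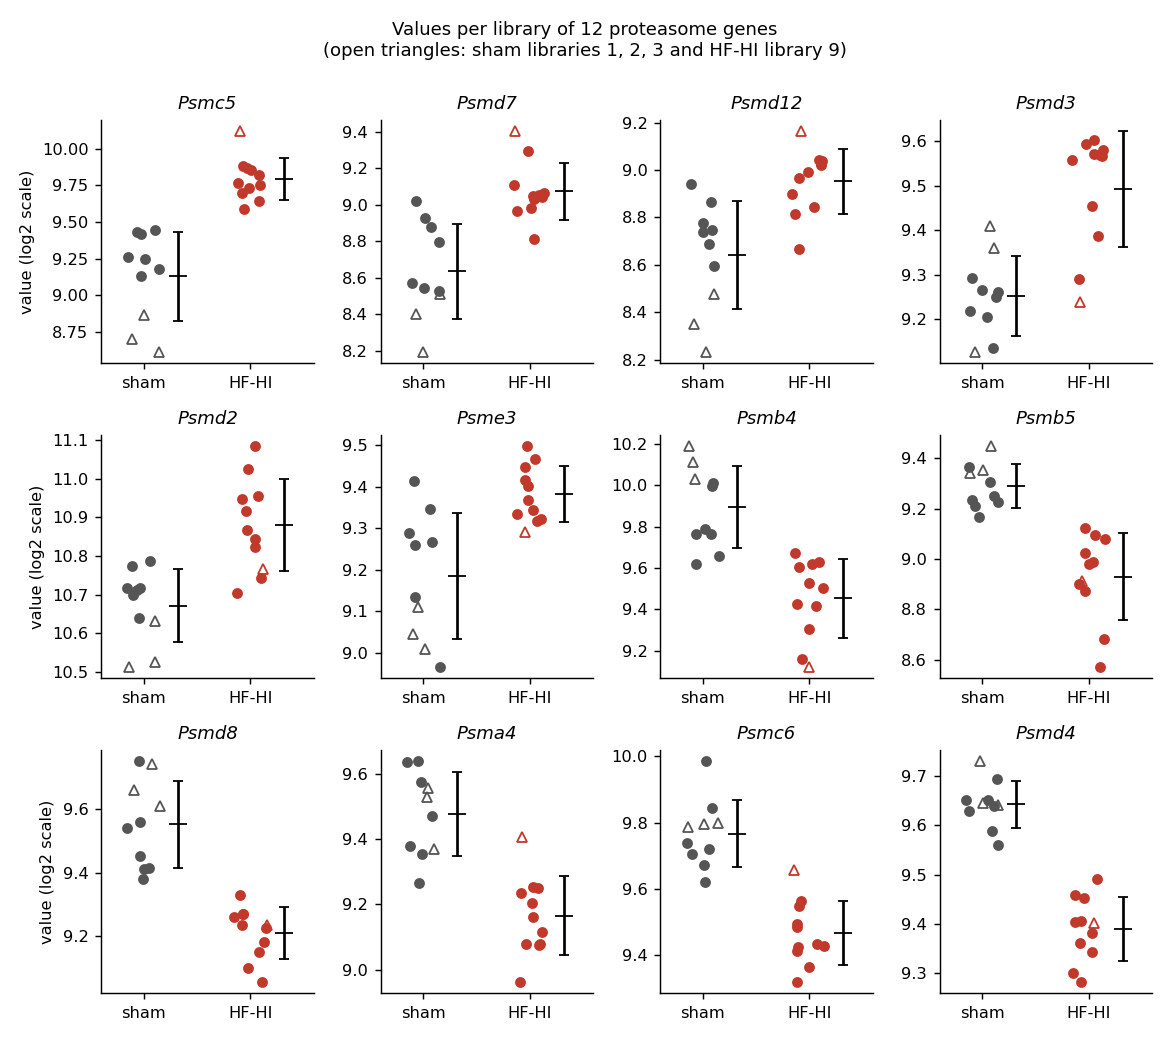
Values per library on the log2 scale for 12 proteasome genes, with the mean and SD of each group beside the points, and sham libraries 1, 2 and 3 and HF-HI library 9 as open triangles. The groups do not overlap in Psmc5, Psmb5, Psmd8 and Psmd4, and the 3 sham triangles lie lowest in Psmc5, Psmd7, Psmd12 and Psmd2.

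The lid held the widest contrast after the ATPase ring, with 3 genes higher, 4 lower and 1 not called. Psmd7 encodes Rpn8, the partner of the deubiquitinase in the lid (ENSMUSG00000039067, GRCm38 chr8:107580381-107588464, 7 exons). Sham libraries ran from 8.19 to 9.02 (median 8.55) and HF-HI libraries from 8.81 to 9.40 (median 9.05), with 8 HF-HI libraries above all sham libraries. The difference was 0.44 (8.64 ± 0.26 to 9.07 ± 0.16, SE 0.086, adjusted p = 1.22e-04), a ratio of 1.35. Psmd12, which encodes the PCI-domain subunit Rpn5, ran from 8.23 to 8.94 in sham (median 8.71) and from 8.66 to 9.16 in HF-HI (median 8.99), a difference of 0.31 (8.64 ± 0.23 to 8.95 ± 0.14, SE 0.075, adjusted p = 9.99e-04). The groups overlapped, and 7 HF-HI libraries were above all sham libraries. Sham libraries 1, 2 and 3 were the lowest in both genes. Without them the differences were 0.32 for Psmd7 (adjusted p = 0.00165) and 0.19 for Psmd12 (adjusted p = 0.0107). Psmd3 (Rpn3) was higher by 0.24 (adjusted p = 1.53e-04), and Psmd11 (Rpn6), a clamp between lid, base and core, missed the threshold at 0.15 (adjusted p = 0.0530) and passed it in 7 of the 21 fits with 1 library left out. Without sham libraries 1, 2 and 3 Psmd11 differed by 0.073 (adjusted p = 0.367).

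The lower lid genes were as clear. Psmd8 (Rpn12, the last subunit to join the lid) had sham libraries from 9.38 to 9.75 (median 9.55) and HF-HI libraries from 9.05 to 9.33 (median 9.23), with no overlap. The difference was -0.34 (9.55 ± 0.14 to 9.21 ± 0.081, SE 0.048, adjusted p = 1.81e-06). Psmd6 (Rpn7) had sham libraries from 9.03 to 9.33 (median 9.21) and HF-HI libraries from 8.85 to 9.005 (median 8.92), again with no overlap, and a difference of -0.29 (9.21 ± 0.10 to 8.91 ± 0.049, SE 0.036, adjusted p = 3.60e-07). Psmd14, the gene of the deubiquitinase Rpn11 itself, was lower by 0.18 (adjusted p = 2.79e-04) and Psmd13 (Rpn9) by 0.17 (adjusted p = 7.47e-04). Psmd14 and Psmd7, whose products form a pair, thus differed in opposite directions in the deposited values.

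The activators and the assembly factor also differed in direction. Psme3, the gene of the nuclear activator PA28 gamma, was higher by 0.20 (9.18 ± 0.15 to 9.38 ± 0.068, SE 0.049, adjusted p = 0.00121), with 4 of 11 HF-HI libraries above all sham libraries. Psme4, the gene of the large nuclear activator PA200, was lower by 0.21 (10.36 ± 0.090 to 10.14 ± 0.11, SE 0.043, adjusted p = 1.57e-04). Psmd5, which encodes a chaperone of base assembly, was lower by 0.29 (8.87 ± 0.10 to 8.58 ± 0.12, SE 0.049, adjusted p = 2.61e-05). Its sham minimum and its HF-HI maximum both round to 8.74, and the groups just failed to overlap.

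The core particle genes were also averaged within each library. The mean deviation of its 14 genes from their means over all libraries ran from 0.0012 to 0.19 in sham (median 0.11) and from -0.20 to -0.029 in HF-HI (median -0.085), so the groups did not overlap. The beta ring alone ran from 0.026 to 0.23 in sham and from -0.27 to -0.044 in HF-HI. The corresponding means over the alpha ring, ATPase ring, base and lid overlapped, and in the ATPase ring and lid the higher and lower genes cancelled, with medians within 0.034 of 0 in both groups. These means are descriptions and were not tested.

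**Figure D3:**
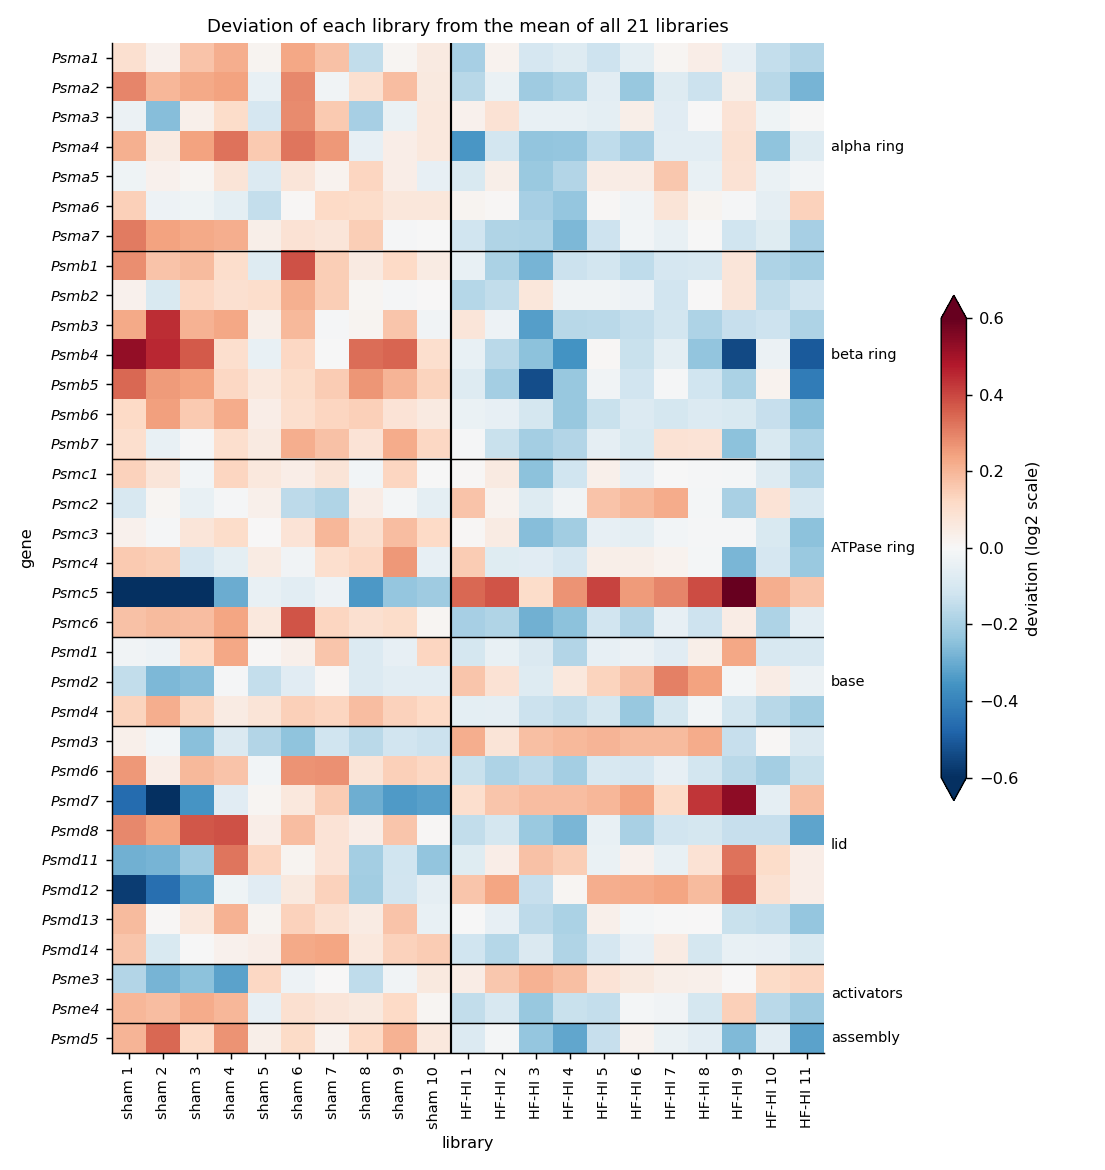
Deviation of every library (columns, sham then HF-HI) from the mean of all 21 libraries for each proteasome gene, in log2 units from blue (below) to red (above), with colours saturating at 0.6. The beta ring is mostly red in sham and mostly blue in HF-HI, and Psmc5, Psmd7 and Psmd12 are bluest in sham libraries 1, 2 and 3 and red in most HF-HI libraries.

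Libraries did not contribute equally. Sham libraries 1, 2 and 3 were the 3 lowest sham libraries in Psmc5, Psmd2, Psmd7 and Psmd12, all called higher, and the 3 highest in Psma7 and Psmb4, both called lower. This held for 11.8% and 5.88% of members, against 5.47% and 2.54% of all genes. The labels do not set these libraries apart, and they were looked at together after their values had been seen. Without them 6 members were higher and 21 lower (29.8% and 30.5% of all genes), the lost call being Psmc4. HF-HI library 9 lay farthest from its group mean over all genes (root mean square 0.23, against 0.098 to 0.15 for the other HF-HI libraries) and was the highest HF-HI library in Psmc5, Psmd7, Psmd11 and Psmd12, among others, and the lowest in Psmb4, Psmb7, Psmc2, Psmc4, Psmd3 and Psme3. Without it 7 members were higher and 22 lower (33.9% and 34.8% of all genes), and Psmc5 differed by 0.63.

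Whole-table properties moved with the groups. Total read depth is unknown, and depth relative to the median library, read from the spacing of the values, ran from 0.580 to 1.26 in sham and from 0.548 to 1.63 in HF-HI. The slope of a library's deviations on exonic GC content was -0.23 to 0.0058 per 10% GC in sham and -0.039 to 0.16 in HF-HI. The lowest HF-HI slope was that of HF-HI library 9, whose relative depth was 0.573. The next lowest was 0.013, in HF-HI library 11. The slope per doubling of exonic length was -0.034 to 0.013 in sham (median -0.011) and -0.012 to 0.026 in HF-HI (median 0.011). Neuronal markers were all present (8 of 8), with a mean level of 12.2 to 12.4 in sham and 12.5 to 12.7 in HF-HI, without overlap. Of these markers 5 were higher and none lower, beside 32.6% and 33.6% of all genes. Of 7 astrocyte markers 3 were higher and 1 lower, and of 6 oligodendrocyte markers 1 was higher, with overlapping mean levels in both cases. Only 2 of 8 microglial markers (1 higher, 1 lower) and 2 of 5 endothelial markers (1 higher) had values. Of 3 choroid plexus markers only Ttr had values and was not called. Its libraries ran widely, from 6.16 to 11.5 in sham and from 6.86 to 13.3 in HF-HI. No gene was listed at 0, the lowest value in the table being 4.59. The part of these properties in the proteasome differences was not tested beyond the values given here.

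Exonic GC content and length of the members were set beside those of the table. The median exonic GC content of members was 49.1%, against 47.6% for all genes, and their exons were shorter (median 2884.5 bp, against 5979 bp). Between 49.5 and 53.7% GC, 46.0% of the 1109 genes were higher and 20.6% lower, while of the 13 members there 10 were lower and 3 higher. Up to 42.4% GC, 61.2% of the 1108 genes were lower, and 5 of the 6 members there were lower. Core particle genes of low GC content, such as Psma2 (39.7%) and Psmb7 (42.2%), were thus lower like most genes of similar GC content, while Psmb5 (56.6%) and Psma7 (52.3%) were lower where most called genes were higher.

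With each library's trend on GC content removed, 8 members were higher and 20 lower (29.2% and 31% of all genes). Psmb5 then differed by -0.56, Psmb4 by -0.52 and Psmd8 by -0.46, all farther from 0 than in the deposited values. Psmc5 differed by 0.57, Psmd12 by 0.35 and Psmd7 by 0.33. Psmd3 was no longer called (0.063, adjusted p = 0.191), nor were Psmb7 (-0.10, adjusted p = 0.0649) and Psmd14 (-0.038, adjusted p = 0.413), so the opposite calls of Psmd14 and Psmd7 did not hold there. Psmc2 (0.15, adjusted p = 0.0209) and Psmd11 (0.22, adjusted p = 0.00495) were called higher, and Psma3 turned to 0.11 (adjusted p = 0.0274). With the trend on exonic length removed too, 10 members were higher and 15 lower (28.3% and 30% of all genes). The core particle then held 7 lower and 3 higher genes, the 3 being Psma3, Psma5 and Psma6, and its median difference was -0.12. Psma1 (-0.022, adjusted p = 0.589) and Psma2 (-0.082, adjusted p = 0.0956) were no longer called, which left 2 alpha ring genes lower. In the ATPase ring Psmc1 (-0.063, adjusted p = 0.0618) and Psmc6 (-0.063, adjusted p = 0.0592) lost their calls, leaving 2 genes lower and 2 higher. Psmb1, Psmb3, Psmb4, Psmb5 and Psmb6 stayed lower, and Psmc5 differed by 0.77.

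**Figure D4:**
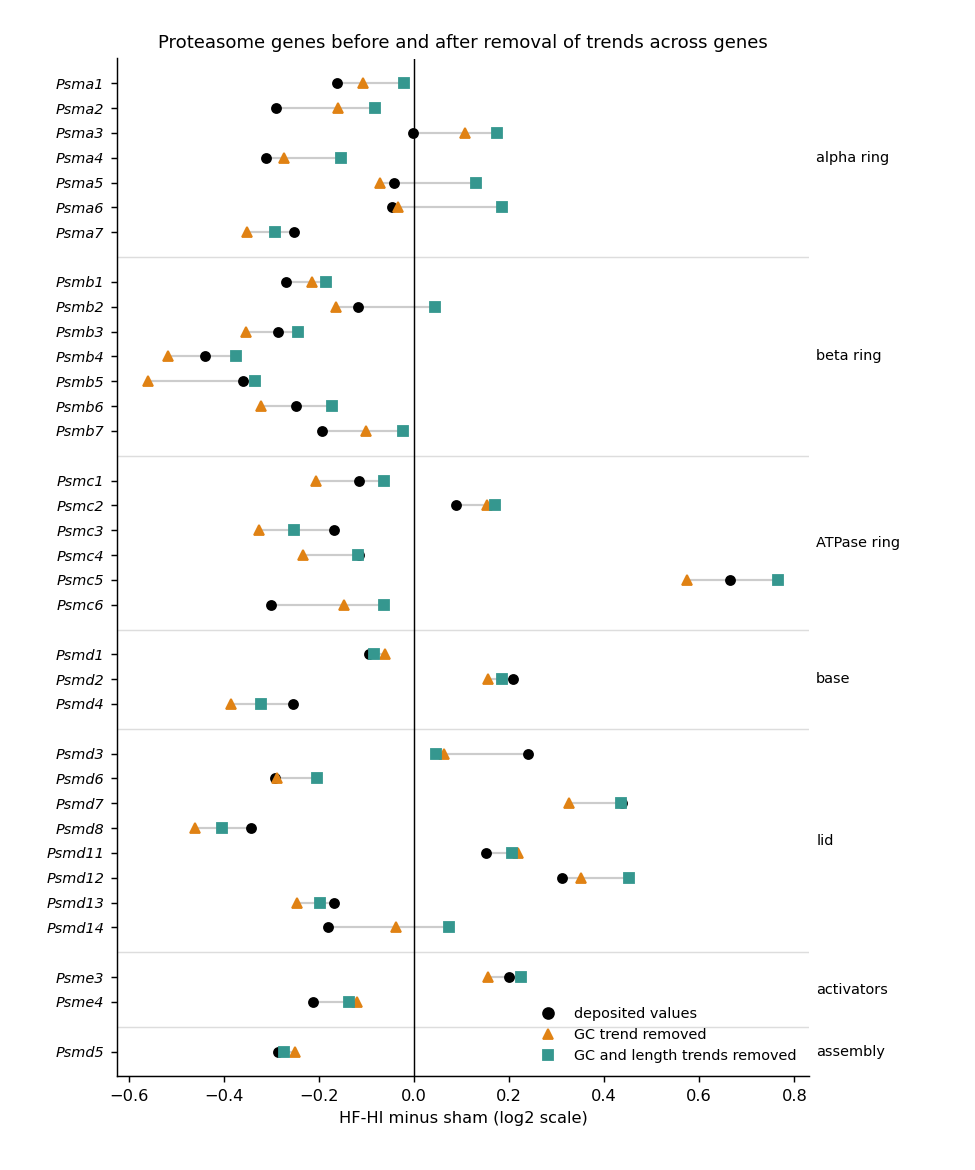
Difference between HF-HI and sham on the log2 scale for each proteasome gene in the deposited values (circles), with the GC trend of each library taken out (triangles) and with its GC and length trends taken out (squares). Psmc5, Psmd7, Psmd12, Psmb4, Psmb5 and Psmd8 keep their side of 0 by 0.31 or more in all 3 settings, while Psmd14, Psmb2, Psma3, Psma5 and Psma6 cross it.

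Members lay on 14 chromosomes. Chromosome 11 held 8 of the 34, including 5 of the 8 members with a positive difference (Psmc5, Psmd3, Psmd11, Psmd12 and Psme3), of which 4 were called, and 3 lower genes (Psmb3, Psmb6 and Psme4). It carries 7.99% of the genes in the table, of which 41.8% were called higher. Exons of 8 members overlap exons of another annotated gene, by more than 5% of their length in Psmb5 (Mir686, same strand), Psmb7 (Nek6), Psmc3 (Slc39a13) and Psmd13 (Sirt3), all but Mir686 on the opposite strand. Whether reads were counted by strand is not given in the sources used here. Psmb5, Psmb6 and Psmb7 have annotated pseudogenes with which reads could have been shared.

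Genes that work with the proteasome were followed in a list of 40, of which 30 had values: 8 were higher (26.7%, against 32.6% of all genes), 12 lower (40%, against 33.6%) and 10 not called, and with libraries centred on their medians 4 were higher and 16 lower. Rps27a, which encodes ubiquitin fused to a ribosomal protein, had sham libraries from 10.37 to 10.75 (median 10.66) and HF-HI libraries from 9.87 to 10.30 (median 10.05), with no overlap. It fell by 0.54 (10.61 ± 0.13 to 10.08 ± 0.12, SE 0.051, adjusted p = 1.02e-08). After removal of the GC trend it was lower by 0.52 (adjusted p = 1.74e-08). Reads of Rps27a may be split with near-identical copies. Ubb, which encodes a chain of ubiquitin units, was lower by 0.11 (adjusted p = 0.0183), a call lost without sham libraries 1, 2 and 3 (adjusted p = 0.0526). After removal of the GC trend Ubb was lower by 0.28 (adjusted p = 1.59e-05).

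Substrate delivery held the largest difference of the list. Ubqln4 encodes a ubiquilin that carries ubiquitinated proteins to the proteasome. Its sham libraries ran from 8.76 to 9.38 (median 8.94) and its HF-HI libraries from 9.70 to 10.09 (median 9.94), with no overlap, and it was higher by 0.90 (9.04 ± 0.23 to 9.94 ± 0.11, SE 0.071, adjusted p = 7.12e-10). The other ubiquilins, Ubqln1 and Ubqln2, were not called (-0.054 and 0.11). Zfand5, whose product binds the proteasome and promotes degradation, was lower by 0.34 (11.54 ± 0.080 to 11.21 ± 0.092, SE 0.039, adjusted p = 1.41e-07), without overlap. After removal of the GC trend Zfand5 was lower by only 0.18 (adjusted p = 6.19e-04). Ube3a, the gene of a ligase that associates with the proteasome and is known from Angelman syndrome, was lower by 0.25 (10.996 ± 0.085 to 10.75 ± 0.063, SE 0.034, adjusted p = 1.48e-06), and was not called after removal of the GC trend (-0.059, adjusted p = 0.213). With the GC and length trends removed Ube3a was called lower (-0.10, adjusted p = 0.0338).

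**Figure D5:**
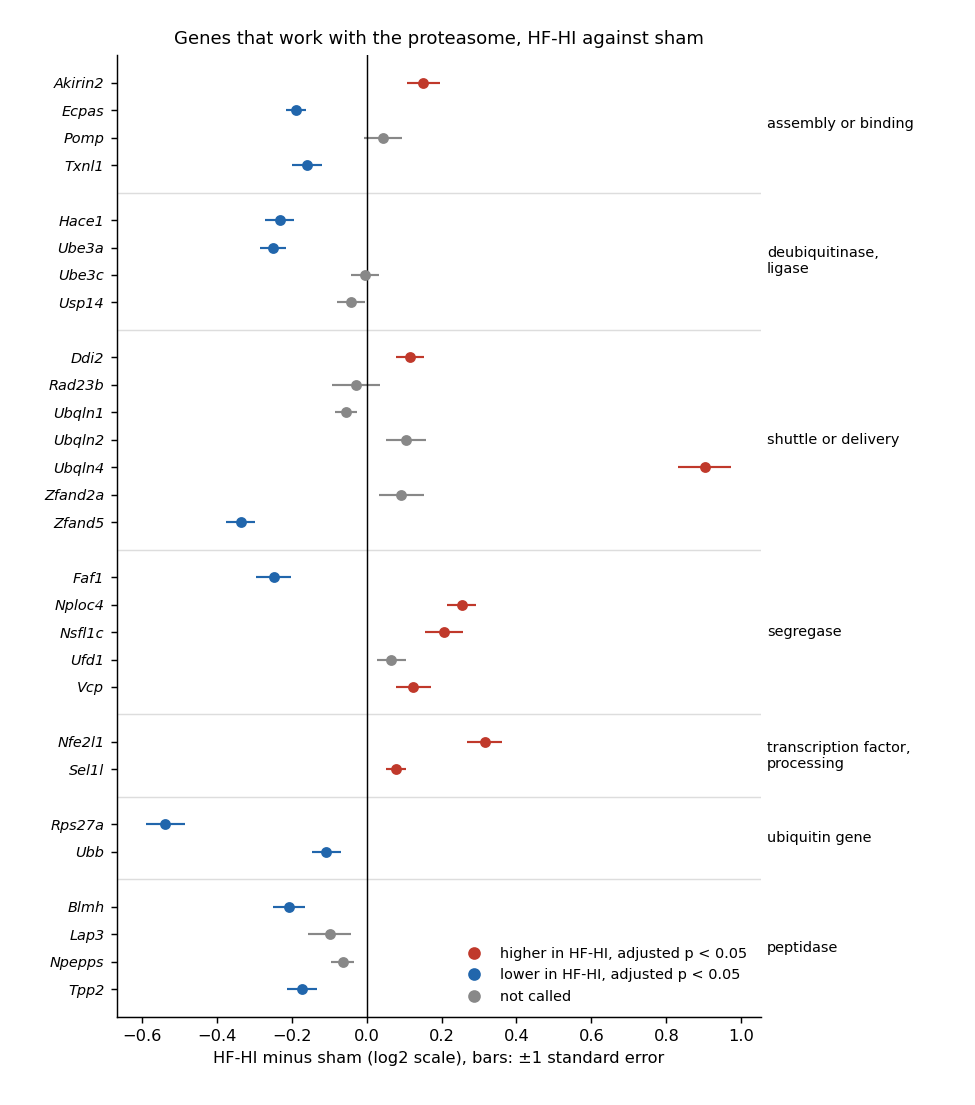
Difference between HF-HI and sham on the log2 scale, with bars of 1 standard error, for 28 genes that work with the proteasome, grouped by role and coloured by call. Ubqln4 lies farthest out at 0.90 and Rps27a lies lowest at -0.54. Nfe2l1 (0.31) and its processing factor Sel1l (0.079) have positive differences.

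Nfe2l1, the gene of the transcription factor (Nrf1) that drives proteasome genes when the protease is impaired, was higher by 0.31. Its sham libraries ran from 11.25 to 11.70 (median 11.53) and its HF-HI libraries from 11.73 to 11.93 (median 11.83), with no overlap (SE 0.046, adjusted p = 3.61e-06). The difference was 0.15 (adjusted p = 0.00745) after removal of the GC trend. Sel1l, the gene of its processing factor, was higher by 0.079 (adjusted p = 0.0104), a call lost with median centring (0.027, adjusted p = 0.403). Among the genes of the Vcp segregase, which extracts proteins for degradation, the cofactor genes Nploc4 (0.25, 9.15 ± 0.11 to 9.41 ± 0.047, SE 0.038, adjusted p = 4.67e-06) and Nsfl1c (0.21, 8.56 ± 0.12 to 8.76 ± 0.12, SE 0.050, adjusted p = 9.73e-04) were higher. Vcp itself differed by 0.12 (adjusted p = 0.0236), a call lost without sham libraries 1, 2 and 3 (0.045, adjusted p = 0.266) and with median centring (0.073, adjusted p = 0.176). Faf1 was lower by 0.25 (adjusted p = 5.98e-05). Pomp, which encodes the maturation factor of the core particle, was not called (0.043, adjusted p = 0.458). Akirin2, whose product brings proteasomes into the nucleus, was higher by 0.15 (adjusted p = 0.00428), a call lost with median centring (adjusted p = 0.0519) and without sham libraries 1, 2 and 3 (adjusted p = 0.0508). The Akirin2 difference was 0.20 (adjusted p = 1.36e-04) with the GC trend removed and 0.39 (adjusted p = 3.84e-07) with the GC and length trends removed.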

How the data were processed

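Total RNA from cortex of 10 sham and 11 HF-HI mice, 1 library per mouse, was sequenced after removal of ribosomal RNA. Per the methods and the submitters' processing notes, the authors aligned reads to mm10 with STAR, counted them per transcript with eXpress and normalized them with DESeq2. The authors deposited variance-stabilized values on a log2 scale, so no count model was fitted, and a ratio is 2 raised to a difference. Every column was matched to a library by its label, and no 2 libraries held identical values.

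Symbols, positions, exon unions and GC content came from GENCODE M21 (GRCm38, the assembly of mm10). Symbols were matched for 5541 genes and exonic GC content was obtained for 5539. HF-HI and sham were tested against each other with limma (version 3.58.1, R 4.3.3, two-sided, adjusted p under 0.05) using lmFit and then eBayes with a trend, after a test on simulated data. GC and length trends were removed per library with a lowess curve of span 0.3 on deviations from the mean of all libraries. Removal would also take away a biological difference that follows them. Tables and plots were made in Python 3.11.15 (pandas 2.3.3, matplotlib 3.10.9, scipy 1.17.1 and numpy 2.4.6).

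Total depth is unknown, and precision was set by the spread between libraries, with n of 10 and 11. With 1 library per mouse, spread between mice and technical spread between libraries cannot be told apart. Relative depth came from the spacing of values where 2 raised to the value lies between 500 and 600. Full values were given for the called members with the largest absolute difference in each subunit group, up to 4 a group, and for up to 4 genes in each direction of the list of genes that work with the proteasome. Psmb6, Psmb7 and further genes named there were added after their values had been seen, to describe the complex by role, and 2 genes of that list are not reported here. The members and lists were chosen with earlier results of these data known. Alternatives were an adjusted p of 0.1, a minimum absolute difference of 0.25, no mean-variance trend, a Wilcoxon rank-sum test, median centring, quantile normalization, a filter on the lowest quartile, removal of the GC trend, replicate numbers as a block, both together, and omission of each library in turn. Removal of both trends, a covariate for relative depth and omission of sham libraries 1, 2 and 3 were chosen after seeing the data.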

Additional observations from a re-analysis of the deposited data

How the results depend on the processing

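Of the 34 members, calls and directions were the same in 34 with eBayes without a trend, in 32 with the Wilcoxon rank-sum test or a covariate for relative depth, in 33 with median centring or quantile normalization, and in 28 with the GC trend removed. They were the same in 27 with the GC trend removed and the replicate block, and in only 21 with the GC and length trends removed. The cause of these changes was not tested. A minimum absolute difference of 0.25 left 15 members called, 3 higher and 12 lower, 7 genes of the list that works with the proteasome, 3 higher and 4 lower, and 1433 genes in all, 987 higher and 446 lower, since the smaller differences are left out. With the GC and length trends removed 10 members were higher. Quantile normalization gave 5 higher genes in the related list and median centring gave 4. Psma3 turned positive at 0.11 with the GC trend removed, 0.11 with that and the replicate block, 0.17 with both trends removed and 0.015 with the depth covariate, and ran from -0.032 to 0.028 with 1 library left out. With both trends removed Psma5 turned to 0.13, Psma6 to 0.19, Psmb2 to 0.044 and Psmd14 to 0.074. With each library left out in turn 27 to 29 members were called, 6 to 7 higher and 21 to 22 lower, 19 to 23 genes of the related list, and 3562 to 3805 genes in all. Replicate numbers are shared by the groups but did not pair the libraries: same-numbered libraries correlated from -0.31 to 0.36 in their deviations, over 0.1 in 4 of 10 pairs, and none correlated best with its own number. With the replicate block 27 members were called (6 higher, 21 lower), 20 related genes and 3498 genes in all. No series among the 52 series of sham values tested held a single library far from the rest by Dixon's test. That test looks for a single outlying value and can miss several libraries that deviate together, so it does not settle whether such libraries were present. It was applied to sham values only. The depth of the libraries is unknown, so it sets no stated limit on small differences.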
